A study of Homo sapiens with 16 samples.

Results

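The genes described here are 38 genes of the unfolded protein response and the integrated stress response, taken by name from the 69222 genes of a count table of SH-SY5Y cells. All 38 names matched a row, and 36 had enough reads to be tested. NUPR1 and SESN2 were listed at 0 in all 16 libraries. SH-SY5Y is an established human neuroblastoma line that can be driven towards a neuron-like state. The study asked how conductive culture films, and electrical stimulation through them, change gene expression during that differentiation. It has 8 groups of 2 libraries of polyadenylated RNA. Untreated cells grew on culture plates. Differentiated control cells grew on culture plates and received lowered serum (5%, 2.5% and then 1%), 10 µM retinoic acid from day 3 to day 6 and then 50 ng/mL BDNF for 4 days. The other 6 groups were differentiated in the same way on coated films of P(rGO), a composite of a polymer with reduced graphene oxide, of the polymer blend PEDOT:PSS, or of indium tin oxide (ITO). Each film was used without stimulation and with it, as a square wave of 0.1 V peak to peak and 1 Hz, given 8 h daily in the last 4 days. The labels do not tell whether both libraries of a group are from separate cultures. The p-values therefore reflect only how far these libraries vary, and that variation may be technical.

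The unfolded protein response is the reaction of a cell to unfolded protein in the endoplasmic reticulum (ER). The sensors IRE1 (gene ERN1), ATF6 and PERK (gene EIF2AK3) start it: ATF6 and the XBP1 protein made after IRE1 splices XBP1 mRNA switch on ER chaperones and degradation factors, while PERK phosphorylates eIF2α. The integrated stress response joins PERK with other eIF2α kinases that sense amino acid lack, heme lack or double-stranded RNA. It lowers bulk translation and favours translation of ATF4, a transcription factor for genes of amino acid supply and, with DDIT3 (CHOP) and TRIB3, of cell death under lasting stress. Neuronal cells draw on both arms because secretory and membrane proteins place a large load on their ER. ATF4 protein, eIF2α phosphorylation and XBP1 splicing were not measured here; the data are mRNA counts per gene. The 38 genes fall into 5 roles: 13 ER chaperones and folding enzymes, 4 factors of ER-associated degradation (ERAD), 5 sensors and ER-side transcription factors, 6 factors of the integrated stress response and 10 targets of the ATF4 type.

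The ER stress element, the bipartite site first described in chaperone promoters, is shown here because many chaperones carry it and none of the ATF4-type targets searched did. It was searched on both strands as CCAAT, then CCACG after 9 bases, in RefSeq promoter windows of 300 bases (250 before and 50 after each start, build GRCh38.p14). It stood in 27 of 35116 windows, or 0.0769%, which belong to 25 of 27305 genes. Windows were found for 35 of the 38 genes. The element was in 6 of 12 chaperone genes with a window (HSPA5, HSP90B1, CALR, CANX, CRELD2 and PDIA6) and in XBP1. None of the 4 ERAD genes, 5 integrated stress response factors and 9 ATF4-type targets with a window held it in this form. Other orders and spacings of the parts were not searched, so an ER stress element of another form is not excluded. HERPUD1 and SDF2L1, for example, hold CCAAT and CCACG close together on opposite strands, an arrangement that the search did not cover. The capitals mark the element, which reads CGTGG and then ATTGG where it lies on the other strand, and each stretch ends before the transcription start.
HSPA5, chr9:125241381-125241419, minus strand: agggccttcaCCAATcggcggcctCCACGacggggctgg
HSP90B1, chr12:103930206-103930349, plus strand, with 2 sites: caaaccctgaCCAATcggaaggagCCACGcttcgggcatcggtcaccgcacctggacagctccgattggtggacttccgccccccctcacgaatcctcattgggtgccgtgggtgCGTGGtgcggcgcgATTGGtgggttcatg
CALR, chr19:12938374-12938412, plus strand: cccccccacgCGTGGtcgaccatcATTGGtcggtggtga
CRELD2, chr22:49918544-49918582, plus strand: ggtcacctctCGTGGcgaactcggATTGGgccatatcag
PDIA6, chr2:10812843-10812881, minus strand: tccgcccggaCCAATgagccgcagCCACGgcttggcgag
XBP1, chr22:28800593-28800631, minus strand: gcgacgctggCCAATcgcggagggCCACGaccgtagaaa

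The parts of the element are common on their own. CCACG stood in 38.1% of all windows and CCAAT in 34.6%, each on either strand. The C/EBP-ATF element, at which ATF4 binds together with a C/EBP partner, was searched on both strands as TGATGNAA and stood in 3.62% of windows, those of 1217 genes. Among the 38 genes it was found in ASNS, CHAC1, ATF3, CEBPG, HERPUD1 and CREB3L2, and in none of the 12 chaperone genes. The other 7 ATF4-type targets with a window held no match to these letters within these 300 bases. A match is a description of the sequence and not a measured binding site. The sites of ASNS, CHAC1 and CEBPG are shown for comparison with the chaperone element, with the match in capitals.
ASNS, chr7:97872459-97872486, minus strand: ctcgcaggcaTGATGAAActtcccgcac
CHAC1, chr15:40953252-40953279, plus strand: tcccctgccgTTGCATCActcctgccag
CEBPG, chr19:33374061-33374088, plus strand: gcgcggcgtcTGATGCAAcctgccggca

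The libraries held 15600410 to 20851000 counts in genes, and levels are given as CPM, the counts scaled to a common library size with TMM factors. The untreated libraries differed most from each other, with a biological coefficient of variation of 36.2%, against 18.1% between the differentiated plates and 6.88% to 18.2% within film groups. The summed level of 10 adrenergic neuroblastoma markers was 4924 to 7401 CPM, with CHGA listed at 0. The summed level of 11 fibroblast markers was 424 to 637 CPM in the untreated libraries and 194 to 333 CPM in the others, with POSTN at 0. That of 6 Schwann and glial markers was 3.90 to 12.8 CPM, with SOX10 at 0. The part of these markers in the results was not tested. CANX, an abundant ER lectin in most cells, was counted at only 0.948 to 3.02 CPM, and its level is not described singly, nor were the zeros of NUPR1 and SESN2 read as expression. CANX stays among the 13 chaperones in every count, median and list level below. Leaving it out moved the chaperone median of a comparison by at most 0.0908, from -0.16 to -0.25 for unstimulated films against untreated plates. In the GENCODE 29 annotation, ASNS shares 44.6% of its exon bases with AC079781.5 on the same strand, so its counts are uncertain. DDIT4 shares 41.2%, MTHFD2 33.2% and DDIT3 31.6% of exon bases with genes on the opposite strand, and no source used here states whether reads were counted by strand.

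**Figure D1:**
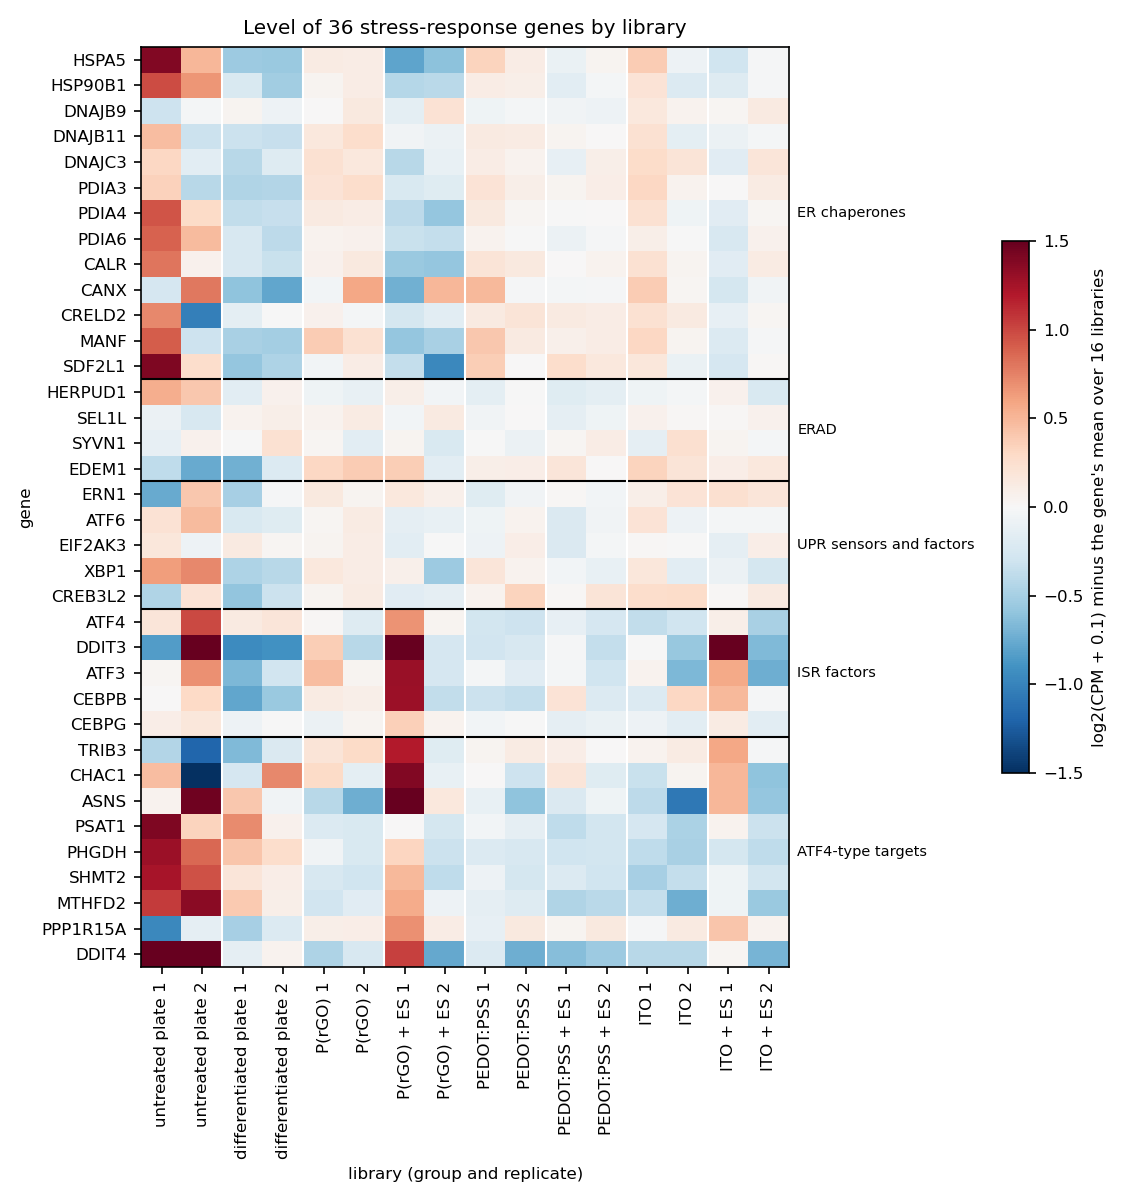
Each row is one of the 36 tested genes, grouped by role, and each column one of the 16 libraries. Colour is log2(CPM + 0.1) minus the mean of that gene over the 16 libraries, clipped at -1.5 and 1.5. The first untreated library is high in most chaperones and in PSAT1. Both untreated libraries are high in the serine and one-carbon genes PHGDH, SHMT2 and MTHFD2. The first library of stimulated P(rGO) (ES, electrical stimulation) is high in all 5 tested integrated stress response factors.

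Differentiation on plates came with lower mRNA of ER chaperones and of several amino acid and one-carbon genes. Of the 36 tested genes, 14 were lower and 0 were higher in differentiated than in untreated plates by edgeR's quasi-likelihood test at an adjusted p of at most 0.05. Over all 18081 genes tested, 15.8% were lower and 13.8% higher. The 14 were 7 of 13 chaperones, 1 of 4 ERAD factors, 2 of 5 sensors and ER-side factors, 0 of 5 tested integrated stress response factors and 4 of 9 tested ATF4-type targets. The median log2 fold change was -0.92 for chaperones and -0.74 for ATF4-type targets, against -0.011 for all genes. In bulk RNA, fewer cells of a type and less RNA per cell cannot be told apart.

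HSPA5 (BiP), the main Hsp70 chaperone of the ER lumen at chr9:125234853-125241330 (GRCh38, minus strand), had 685 and 371 CPM in the untreated libraries and 179 and 178 CPM in the differentiated plates. Both untreated libraries stood above both plates, and the level fell by 1.56 on the log2 scale (SE 0.23, adjusted p = 0.000542). HSP90B1, the Hsp90 of the ER, had 967 and 773 CPM untreated against 419.8 and 341 CPM differentiated, a log2 fold change of -1.19 (SE 0.17, adjusted p = 0.000338). The disulfide isomerases PDIA4 and PDIA6 each had a log2 fold change of -1.01. PDIA6 had 516 and 387 CPM untreated against 236 and 213 CPM differentiated, and PDIA4 had 293 and 187 CPM against 118 and 119.97 CPM. SDF2L1, a partner of BiP, had 23.4 and 10.6 CPM untreated against 5.86 and 6.34 CPM differentiated, a log2 fold change of -1.48 (SE 0.32, adjusted p = 0.00464). The groups did not overlap for these 5 genes, and in each the first untreated library was the higher one. Over all 18081 genes tested, both plates lay below both untreated libraries in 5026 and above both in 5180. Among the 36 tested members these numbers were 22 and 1.

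That library decided some chaperone values. MANF, a secreted ER stress protein, had 101 CPM in it, 43.5 CPM in the second untreated library and 38.6 and 38.0 CPM in the differentiated plates. Its log2 fold change of -0.92 (SE 0.27, adjusted p = 0.0208) had an adjusted p of 0.352 without the first untreated library, and the call was also lost without either plate library; over its alternatives the adjusted p ran from 3.58e-05 to 0.352. CALR, the lectin calreticulin, had 657 and 395 CPM untreated against 318 and 299 CPM differentiated, a log2 fold change of -0.77 (SE 0.19, adjusted p = 0.00918), and lost its call without the first untreated library or without the second plate library. The chaperone median was -0.36 without the first untreated library and -1.09 without the second. Not all chaperones shared the pattern: DNAJB9, a J-domain cochaperone that XBP1 activates, had 28.4 and 34.8 CPM untreated against 36.3 and 33.5 CPM differentiated, and CRELD2 had 49.0 and 14.6 CPM against 27.0 and 29.6 CPM. Neither DNAJB9 nor CRELD2 passed the test.

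Among the sensors and ER-side factors, XBP1 (chr22:28794555-28800597, minus strand) had 98.9 and 106 CPM in the untreated libraries and 46.4 and 48.2 CPM in the differentiated plates. The replicates lay close together in both groups, and the log2 fold change was -1.11 (SE 0.18, adjusted p = 0.000731). ATF6, the membrane-bound factor that is cut in the Golgi under ER stress, had 83.2 and 100.05 CPM untreated against 61.4 and 63.4 CPM differentiated, a log2 fold change of -0.55 (SE 0.13, adjusted p = 0.0084). The sensor genes EIF2AK3 and ERN1 did not pass: EIF2AK3 had 33.5 and 28.3 CPM against 32.6 and 30.3 CPM, and ERN1 had 16.6 and 37.2 CPM against 19.8 and 27.7 CPM. The untreated libraries bracketed the plates in both sensor genes. HERPUD1, which helps to recruit ERAD substrates, had 49.6 and 44.9 CPM untreated against 30.4 and 35.4 CPM differentiated, a log2 fold change of -0.52 (SE 0.14, adjusted p = 0.0161).

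On the integrated stress response side, none of the 5 tested factors passed. ATF4 (chr22:39519695-39522685, plus strand) had 189.9 and 331 CPM untreated against 183 and 189 CPM differentiated, a log2 fold change of -0.49 (SE 0.25, adjusted p = 0.152). DDIT3, the pro-apoptotic factor CHOP at chr12:57516588-57521737 (minus strand), had 8.57 and 54.0 CPM untreated against 7.97 and 8.18 CPM differentiated, a log2 fold change of -1.95 (SE 0.80, adjusted p = 0.0781). ATF3, an early stress factor, had 14.1 and 22.2 CPM untreated against 8.62 and 11.2 CPM differentiated. In these 3 factors the second untreated library was the higher one, whereas the 7 called chaperones were higher in the first. CEBPB, another bZIP factor of the response, had 11.4 and 14.0 CPM untreated against 6.56 and 7.63 CPM differentiated (adjusted p = 0.124). CEBPG, a dimer partner of ATF4, had 78.3 and 82.2 CPM against 69.1 and 72.8 CPM (adjusted p = 0.336). The groups of CEBPB and CEBPG did not overlap, and the plates lay below both untreated libraries in 5026 of all 18081 genes.

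The ATF4-type targets that fell belong to serine synthesis, one-carbon metabolism and mTORC1 restraint. PHGDH, the first enzyme of serine synthesis (chr1:119648411-119744226, plus strand), had 182 and 136 CPM untreated against 100.01 and 90.3 CPM differentiated, a log2 fold change of -0.74 (SE 0.19, adjusted p = 0.00997). The mitochondrial one-carbon enzymes SHMT2 and MTHFD2 had log2 fold changes of -0.97 (adjusted p = 0.00482) and -0.96 (adjusted p = 0.00532). SHMT2 had 139.7 and 115 CPM untreated against 67.2 and 63.2 CPM differentiated, and MTHFD2 had 126 and 155 CPM against 79.8 and 64.4 CPM. DDIT4 (REDD1), an mTORC1 inhibitor, had 72.8 and 33.1 CPM untreated against 10.6 and 12.1 CPM differentiated, a log2 fold change of -2.23 (SE 0.47, adjusted p = 0.00375). The untreated libraries stood above the plates in all 4 genes, and in 5026 of all 18081 genes. The death-associated targets TRIB3 and CHAC1 and the phosphatase subunit PPP1R15A (GADD34) had log2 fold changes of 0.35, 0.56 and 0.15 and did not pass. When only the 4 plate libraries were fitted, 1 of the 14 calls was left. The share of all genes called in that fit is not given here, so the drop is not read as particular to the members.

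**Figure D2:**
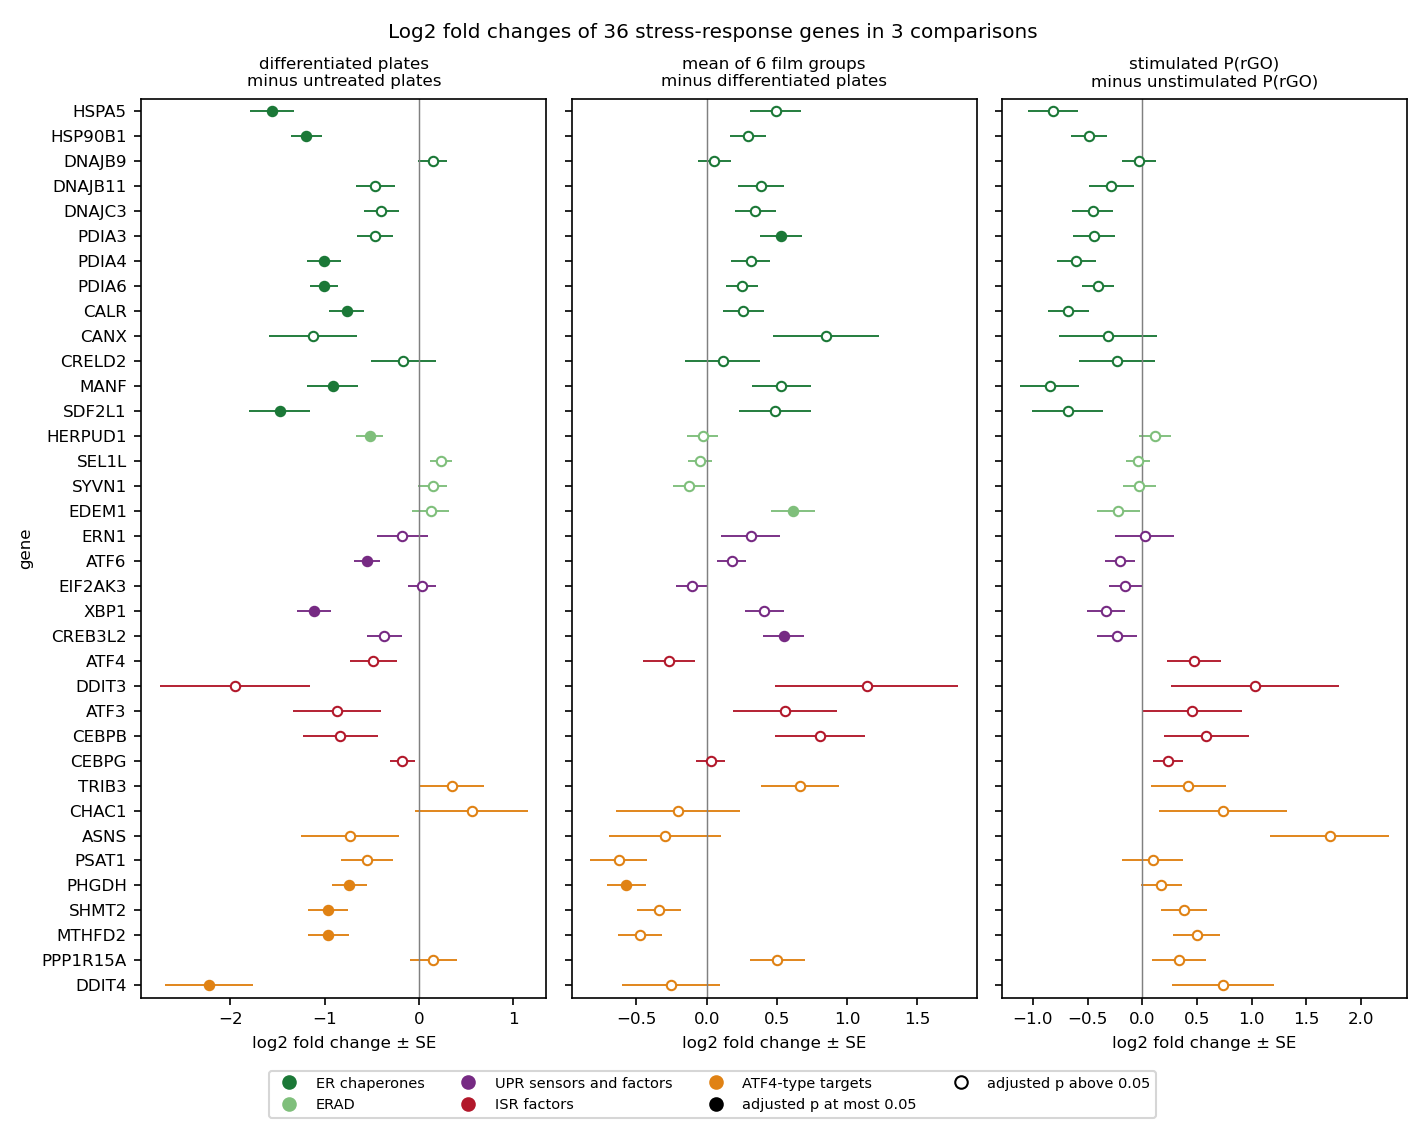
Points are log2 fold changes with standard errors for the 36 tested genes in 3 comparisons, coloured by role, and filled points have an adjusted p of at most 0.05 by edgeR's quasi-likelihood test. The left panel has 14 filled points, all below 0. The middle panel has 4, with PDIA3, EDEM1 and CREB3L2 above 0 and PHGDH below. The right panel has none, with all 13 chaperones below 0 and all 9 ATF4-type targets above.

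On unstimulated conductive films the median levels of the chaperones and of the ATF4-type targets lay on opposite sides of the differentiated plates. On the log2 scale the chaperone median was 0.50 with unstimulated P(rGO), 0.47 with PEDOT:PSS and 0.44 with ITO, with 13, 12 and 13 of 13 genes above 0. The median of the 9 tested ATF4-type targets was -0.41, -0.41 and -0.57, with 2 of 9 above 0 on each film, TRIB3 and PPP1R15A. The median of the 5 tested integrated stress response factors was 0.74, 0.33 and 0.21, on the side of the chaperones, with 4, 4 and 3 of 5 above 0. The median of all genes was -0.019, -0.02 and -0.022 in the same order. These 3 comparisons share the same 2 plate libraries, and those plates are also in the comparison with untreated cells, so the films are not independent of each other. Few single genes passed the test. On P(rGO) 1 member was higher and 0 lower, against 2.99% and 1.64% of all genes. On PEDOT:PSS edgeR called 0 members, against 1.02% of all genes higher and 0.454% lower. DESeq2 called 2 members there, and its share over all genes is not given here. At an unadjusted p under 0.05 by edgeR, 15 of 36 members and 3531 of 18081 genes stood out on P(rGO). The counts were 13 and 2495 on PEDOT:PSS, and 15 and 3059 on ITO. On ITO 1 member was higher and 1 lower, against 2.5% and 1.73% of all genes. Over the 6 film groups, stimulated ones included, 3 members were higher and 1 lower, against 4.05% and 3.73%.

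Other settings also moved the number of members called, and more chaperones passed the threshold once the untreated libraries were left out. In a fit without them, added after the data were seen, 9 of 13 chaperones were higher on P(rGO), 6 of 13 on PEDOT:PSS, 7 of 13 on ITO and 7 of 13 over the 6 film groups, and 0 were lower. In that fit 12 members were higher and 1 lower on P(rGO) (all genes 7.28% and 4.93%), 7 and 0 on PEDOT:PSS (3.46% and 1.99%), 9 and 3 on ITO (5.74% and 3.97%), and 11 and 2 over the 6 film groups (8.43% and 7.32%). HSPA5 had 285 and 284 CPM on P(rGO), 330.5 and 282 CPM on PEDOT:PSS and 342 and 249 CPM on ITO. All 6 unstimulated film libraries stood above the plates at 179 and 178 CPM and below both untreated libraries. Against the plates its log2 fold change was 0.67 on P(rGO) (SE 0.23, adjusted p = 0.117), and 0.68 (SE 0.15, adjusted p = 0.00907) without the untreated libraries. MANF had 70.4 and 63.4 CPM on P(rGO), 71.7 and 59.6 CPM on PEDOT:PSS and 67.2 and 55.6 CPM on ITO, against 38.6 and 38.0 CPM on plates. Its adjusted p on P(rGO) was 0.107 in the fit of all libraries and 0.00126 without the untreated ones.

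PDIA3 (ERp57), which folds glycoproteins with calnexin and calreticulin, was the chaperone called over the 6 film groups with all libraries fitted. It had 226 and 228 CPM on plates and 264 to 384 CPM in the 12 film libraries, with a median of 329.9 CPM, so the groups did not overlap. The log2 fold change of PDIA3 was 0.53 (SE 0.15, adjusted p = 0.0467), and the call was lost when any 1 plate or film library was left out. EDEM1, which extracts misfolded glycoproteins for ERAD, had 28.4 and 40.7 CPM on plates and 41.8 to 61.0 CPM on films, all above both plates. EDEM1 was higher by 0.61 on the log2 scale over the 6 film groups (SE 0.16, adjusted p = 0.0298) and by 0.79 on P(rGO) (SE 0.20, adjusted p = 0.0386). Without the first plate library, the lower one, the adjusted p was 0.527 and 0.361, and over all alternatives it ran from 0.00218 to 0.527 and from 0.00189 to 0.361. The other 3 ERAD factors, HERPUD1, SEL1L and SYVN1, had log2 fold changes of -0.03, -0.05 and -0.12 over the 6 film groups.

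CREB3L2, a membrane-bound relative of ATF6 that drives secretory genes, was higher on ITO by 0.72 on the log2 scale (SE 0.18, adjusted p = 0.0398) and over the 6 film groups by 0.55 (SE 0.15, adjusted p = 0.0337). It had 49.9 and 60.5 CPM on plates, 90.9 and 91.2 CPM on ITO, and 67.1 to 95.2 CPM over the 12 film libraries, which did not overlap the plates. Its calls were lost in 14 of 22 alternatives on ITO and 10 of 22 over the 6 film groups, all of them with a plate or film library left out. XBP1 had 71.4 and 69.0 CPM on unstimulated P(rGO), 72.7 and 66.7 CPM on PEDOT:PSS and 72.0 and 57.6 CPM on ITO, above both plates. With stimulation it had 67.6 and 44.0 CPM on P(rGO), 62.5 and 59.3 CPM on PEDOT:PSS and 60.3 and 53.3 CPM on ITO. The second stimulated P(rGO) library was thus below both plates, at 46.4 and 48.2 CPM. The log2 fold change of XBP1 over the 6 film groups was 0.41 (SE 0.14, adjusted p = 0.0895), and 0.43 (adjusted p = 0.0391) without the untreated libraries. ATF6 had 61.8 to 82.9 CPM, ERN1 24.7 to 33.2 CPM and EIF2AK3 25.5 to 32.2 CPM in the film libraries, each overlapping the plates. None of these 3 sensor genes passed in any comparison of films with differentiated plates.

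PHGDH was lower on ITO and over the 6 film groups. It had 100.01 and 90.3 CPM on plates, 72.4 and 63.8 CPM on P(rGO), 64.8 and 63.4 CPM on PEDOT:PSS and 57.6 and 53.5 CPM on ITO. With stimulation it had 93.9 and 59.8 CPM on P(rGO), 61.0 and 62.2 CPM on PEDOT:PSS and 62.5 and 57.6 CPM on ITO. The unstimulated film libraries were all below both plates, and of the stimulated ones the first P(rGO) library stood above the second plate. The log2 fold change of PHGDH was -0.78 on ITO (SE 0.19, adjusted p = 0.0327) and -0.57 over the 6 film groups (SE 0.14, adjusted p = 0.02), and of 22 alternatives the second call was lost in 2, those without either plate library, and the first in 10. PSAT1, the next enzyme of serine synthesis, was the only member with all 12 film libraries below both plates, at 26.9 to 38.7 CPM against 60.8 and 39.0 CPM. Its log2 fold change was -0.63 (SE 0.20, adjusted p = 0.0787). The other direction was seen for TRIB3, an inhibitor of AKT that DDIT3 and ATF4 induce: it had 27.8 and 37.8 CPM on plates and 38.9 to 100.5 CPM on films, a log2 fold change of 0.66 (SE 0.28, adjusted p = 0.169). DDIT3 had 9.72 to 51.2 CPM in the 12 film libraries against 7.97 and 8.18 CPM on plates, CEBPB had 8.76 to 27.8 CPM against 6.56 and 7.63 CPM, and PPP1R15A had 39.3 to 69.0 CPM against 30.3 and 37.1 CPM. None of DDIT3, CEBPB and PPP1R15A passed in the fit of all libraries. In the fit without the untreated libraries PPP1R15A was called higher over the 6 film groups (0.52, SE 0.14, adjusted p = 0.0258) and PSAT1 lower (-0.61, SE 0.13, adjusted p = 0.00704). In all, 8 members had every film library above both plates (DNAJB11, PDIA3, EDEM1, CREB3L2, DDIT3, CEBPB, TRIB3 and PPP1R15A), against 9.24% of all genes, and 1 had every one below, against 8.3%.

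**Figure D3:**
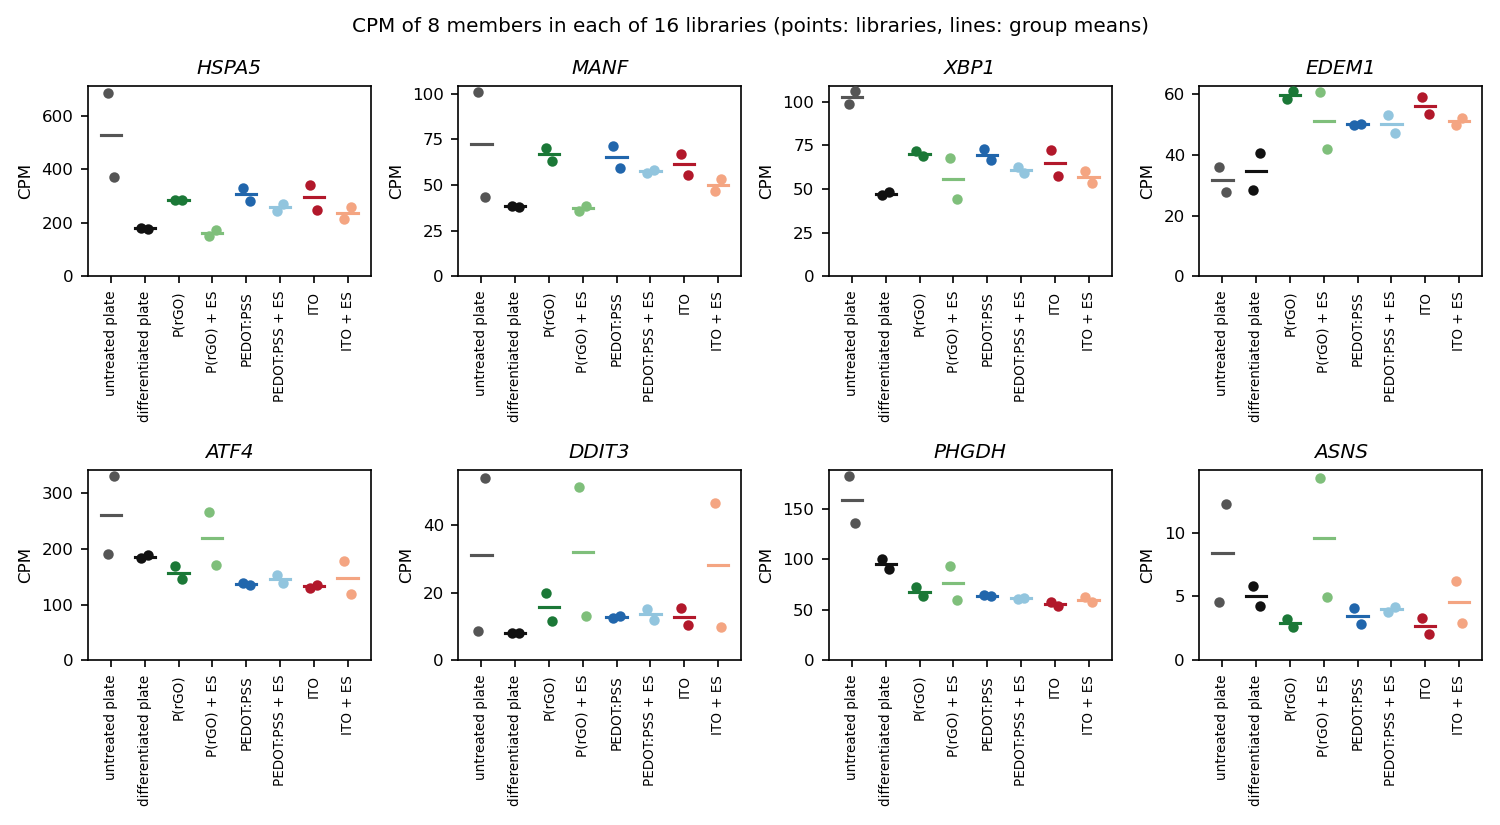
CPM of 8 genes in each of the 16 libraries, with points for libraries and lines for group means, on linear axes from 0. HSPA5, MANF and XBP1 lie higher on the unstimulated films than on the differentiated plates, PHGDH lies lower, and DDIT3 is at 8.57 and 54.0 CPM in the untreated libraries and at 51.2 and 12.96 CPM in the stimulated P(rGO) libraries.

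No member passed the test for electrical stimulation on any film. edgeR's quasi-likelihood test called 0% of the 18081 genes for stimulation with P(rGO), 0% with PEDOT:PSS and 0% with ITO. It also called 0% for the mean over the 3 films, 0% for the difference in the effect of stimulation between films and 0% for the difference among the 3 unstimulated films. DESeq2 called 0 members in each of these 6 comparisons. With no filter on low counts, which brought 36835 genes into the fit, 5 members were called for P(rGO) against 0.456% of all genes, with HSPA5, CALR and MANF lower and DDIT3 and ASNS higher. In the same fit DDIT3 was called higher for ITO, against 0.0489%, and 4 members for the mean over films, against 0.372%. At an unadjusted p under 0.05, 986 of all genes and 10 of 36 members stood out on P(rGO), 126 and 0 on PEDOT:PSS, 293 and 0 on ITO, and 1021 and 9 for the mean over films. For the difference between films the numbers were 133 and 0, and among the unstimulated films 239 and 0.

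On P(rGO) the 10 members were 8 chaperones with negative and the ATF4-type targets ASNS and MTHFD2 with positive log2 fold changes. All 13 chaperones were below 0, with a median of -0.45 against -0.002 for all genes, and all 9 ATF4-type targets and all 5 tested integrated stress response factors were above 0, with medians of 0.42 and 0.47. HSPA5 had 151 and 171 CPM with stimulation against 285 and 284 CPM without, a log2 fold change of -0.82 (SE 0.23, adjusted p = 0.728). MANF had 35.97 and 38.4 CPM with stimulation against 70.4 and 63.4 CPM without, and CALR had 255 and 252 CPM against 394 and 417 CPM. The stimulated values of HSPA5 and CALR were below those of the differentiated plates, and those of MANF were near them. For 11 of 13 chaperones both stimulated P(rGO) libraries were below both unstimulated ones, against 20.4% of all genes, and for 6 members both were above, against 18.1% (HERPUD1, ATF4, CEBPG, ASNS, MTHFD2 and PPP1R15A).

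The chaperone values were close in the 2 stimulated P(rGO) libraries, and those of the integrated stress response were not. The first of them was the highest of the 12 film libraries in 5 of 5 tested integrated stress response factors and in 8 of 9 ATF4-type targets. The share of all genes highest in that library was not computed, so these counts are not read as particular to the members. ATF4 had 266 and 171 CPM with stimulation against 169 and 146 CPM without, and DDIT3 had 51.2 and 12.96 CPM against 19.8 and 11.6 CPM. ASNS, asparagine synthetase, had 14.3 and 4.94 CPM against 3.26 and 2.60 CPM, a log2 fold change of 1.71 (SE 0.54, adjusted p = 0.741). ATF3 had 33.9 and 11.6 CPM against 19.0 and 14.2 CPM, so the second stimulated library lay below both unstimulated ones. Without the first stimulated library the median of the ATF4-type targets was -0.12, and without the second it was 0.78. Mitochondrial genes took 7.33% of gene counts in the first stimulated library, 5.37% in the second and 6.17% and 5.07% in the unstimulated ones, and reads outside genes came to 11.7% and 10.4% of gene counts against 8.28% and 8.92%. Across the 8 groups the first library had the larger mitochondrial share in 7 and the higher level of ATF4-type targets in 7. The labels give all first libraries one prefix and all second ones another, without saying what it stands for. Their part in the result was not tested.

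A like split stood between the stimulated ITO libraries. DDIT3 had 46.5 and 9.72 CPM with stimulation against 15.4 and 10.4 CPM without, and ATF4 had 177 and 119 CPM against 129 and 136 CPM. The first stimulated ITO library had 6.69% of counts in mitochondrial genes and the second 4.58%. On ITO 0 of 13 chaperones and 9 of 9 ATF4-type targets had a log2 fold change above 0, with medians of -0.16 and 0.22. Without the first stimulated ITO library 2 of 13 and 4 of 9 were above 0, with medians of -0.06 and -0.01, and without the second 0 of 13 and 9 of 9, with medians of -0.29 and 0.45. On PEDOT:PSS it was 1 of 13 and 3 of 9, with medians of -0.10 and -0.06. HSPA5 had 213 and 259 CPM on stimulated ITO against 342 and 249 CPM unstimulated, and 245 and 269 CPM on stimulated PEDOT:PSS against 330.5 and 282 CPM. Both stimulated libraries were below both unstimulated ones for 8 of 13 chaperones on PEDOT:PSS and 4 of 13 on ITO, against 18.7% and 13% of all genes. Over all genes, 17.7% on PEDOT:PSS and 14.4% on ITO had both stimulated libraries above. The test of whether stimulation acted differently on the 3 films gave unadjusted p-values of 0.0707 for MTHFD2, 0.11 for CALR and 0.117 for PDIA4, the smallest among the members, each with an adjusted p of 1.

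The levels of both lists were set side by side. Each is the mean over genes of log2(CPM) with a prior count of 2, centred on the mean of each gene over the 16 libraries. Across these libraries the median correlation between genes was 0.62 among the chaperones (-0.60 to 0.98). Among the ATF4-type targets it was 0.19 (-0.75 to 0.96), so their mean level joins genes that did not all move together. The chaperone level was 0.66 and 0.06 in the untreated libraries, -0.35 and -0.38 on differentiated plates, 0.11 and 0.17 on P(rGO) and -0.41 and -0.29 on stimulated P(rGO). It was 0.20 and 0.07 on PEDOT:PSS, 0.0005 and 0.04 with stimulation, 0.24 and -0.0042 on ITO, and -0.16 and 0.04 with stimulation. In order of group mean, the untreated plates stood highest, then P(rGO), PEDOT:PSS, ITO, stimulated PEDOT:PSS, stimulated ITO, stimulated P(rGO) and the differentiated plates. Replicates of neighbouring groups in this order overlapped except between stimulated ITO and stimulated P(rGO). The level of the ATF4-type targets was 0.75 and 0.39 in the untreated libraries, 0.81 and -0.20 on stimulated P(rGO), 0.06 and 0.09 on differentiated plates and 0.19 and -0.38 on stimulated ITO. The other 8 libraries were between -0.09 and -0.36. The ATF4-type level minus the chaperone level was highest in the first stimulated P(rGO) library, at 1.22, and lowest in the first unstimulated ITO library, at -0.53. It was 0.42 and 0.47 on the differentiated plates and negative in all 6 unstimulated film libraries.

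**Figure D4:**
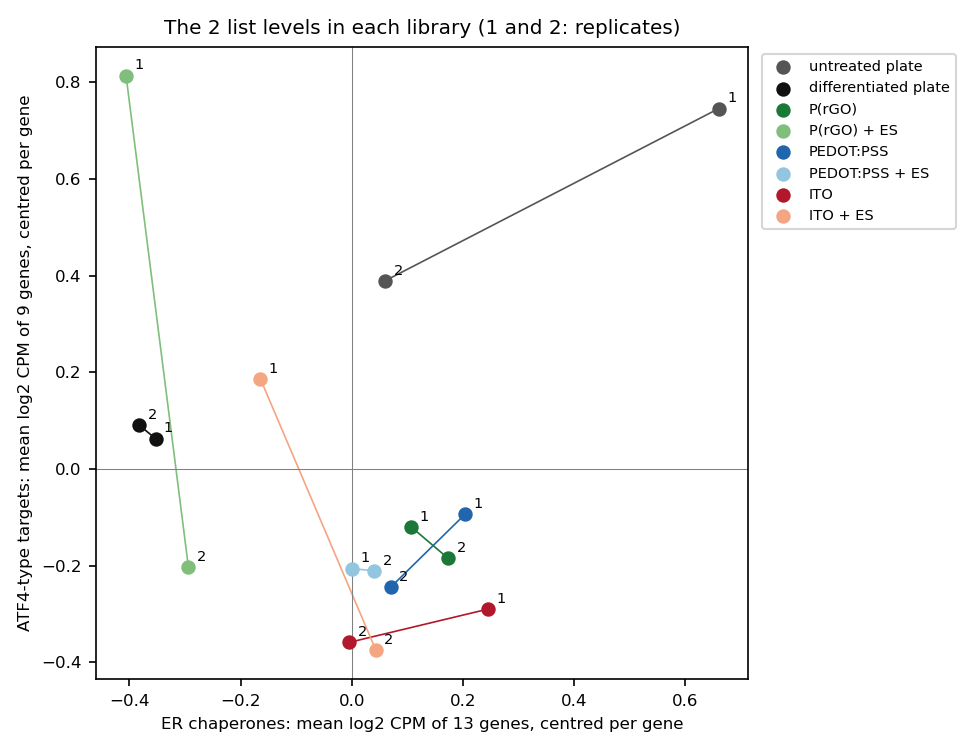
Each point is a library, with the mean centred log2 level of 13 ER chaperones on the horizontal axis and of 9 ATF4-type targets on the vertical axis, and lines join the replicates of a group. The differentiated plates are near -0.37 for chaperones and 0.08 for ATF4-type targets, the 6 unstimulated film libraries are to the lower right of them, and the stimulated P(rGO) libraries are apart at 0.81 and -0.20 on the vertical axis.

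Set against untreated cells, the unstimulated films differed more in the ATF4-type targets than in the chaperones. Of the 36 tested members 3 were higher and 15 lower in the 3 unstimulated films, against 20.4% and 24.3% of all genes. The median was -1.35 for ATF4-type targets and -0.16 for chaperones, and the chaperone median was 0.069 without the first untreated library and -0.64 without the second. The 15 included 5 of 13 chaperones, with HSPA5 at -0.84 (adjusted p = 0.00189), HSP90B1 at -0.77 (adjusted p = 0.00035) and PDIA6 at -0.65 (adjusted p = 0.000515). They also included 6 of 9 ATF4-type targets, with DDIT4 at -2.60 (adjusted p = 4.26e-05), MTHFD2 at -1.52 (adjusted p = 1.01e-05), SHMT2 at -1.40 (adjusted p = 1.74e-05) and PHGDH at -1.35 (adjusted p = 8.99e-06). ATF4 fell by 0.88 on the log2 scale (SE 0.19, adjusted p = 0.00234), a call that was lost without the second untreated library (adjusted p = 0.128, with a range of 7.11e-10 to 0.128 over its alternatives). The 3 higher genes were EDEM1 (0.79, adjusted p = 0.0019), TRIB3 (0.90, adjusted p = 0.0241) and PPP1R15A (0.55, adjusted p = 0.0437). TRIB3 lost its call without the second untreated library, and PPP1R15A in 11 of 21 alternatives. HSPA5, PDIA4 and SDF2L1 lost theirs without the first untreated library.

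A test of any difference among the 8 groups called 15 of the 36 members, against 23.6% of all genes. The smallest p-values were those of the ATF4-type targets PHGDH (adjusted p = 0.000358), MTHFD2 (adjusted p = 0.000399) and SHMT2 (adjusted p = 0.0011), followed by the chaperone HSP90B1 (adjusted p = 0.00129). The 15 were 6 chaperones, 2 ERAD factors (EDEM1 and HERPUD1), XBP1, ATF4 and 5 ATF4-type targets. Among the members that passed in no comparison of the fit of all libraries, the ERAD scaffold SEL1L ran from 73.0 to 95.1 CPM over the 16 libraries, its ligase SYVN1 from 69.0 to 96.1 CPM, the PERK inhibitor DNAJC3 from 19.3 to 32.0 CPM and CEBPG from 65.3 to 93.7 CPM. CHAC1, which degrades glutathione, ran from 2.06 to 17.5 CPM, with its lowest value in the second untreated library and its highest in the first stimulated P(rGO) library.

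A wider list of 76 genes of the same pathways had 35 on the ER side, of which 33 were tested, and 41 on the integrated stress response side, all tested. In differentiated against untreated plates, 12 ER-side genes were lower and 2 higher, and 16 genes of the other side were lower and 1 higher, against 15.8% and 13.8% of all genes. The genes of smallest p were SERP1, which stabilises membrane proteins during stress (-0.98, SE 0.13, adjusted p = 0.000233), ALDH18A1, an enzyme of proline synthesis (-1.08, SE 0.16, adjusted p = 0.000436), and FKBP14, a prolyl isomerase of the ER (-1.09, SE 0.17, adjusted p = 0.000658). Over the 6 film groups against the plates, 2 of 74 were higher and 1 lower, against 4.05% and 3.73% of all genes. SLC7A11, the cystine transporter that ATF4 induces, was higher by 2.85 on the log2 scale (SE 0.58, adjusted p = 0.00907), and it was also the gene called on P(rGO) alone (2.58, SE 0.66, adjusted p = 0.0404). VCP, the ATPase that pulls ERAD substrates from the membrane, was higher by 0.56 (SE 0.14, adjusted p = 0.0291), and MTHFD1L, a mitochondrial one-carbon enzyme, was lower with a log2 fold change of -0.48 (SE 0.13, adjusted p = 0.0345). Against the plates the ER-side median was 0.14 with P(rGO), 0.12 with PEDOT:PSS and 0.13 with ITO, beside 0.50, 0.47 and 0.44 for the 13 chaperones. The median of the other side was -0.07, -0.09 and -0.08 with 20, 19 and 14 of 41 genes above 0, beside -0.41, -0.41 and -0.57 for the 9 ATF4-type targets. Against untreated plates, the 3 unstimulated films had 7 genes of the wider list higher and 29 lower, against 20.4% and 24.3% of all genes, with ALDH18A1 (-1.31, SE 0.12, adjusted p = 3.41e-06), STC2 (-5.63, SE 0.52, adjusted p = 3.67e-06) and SERP1 (-0.91, SE 0.10, adjusted p = 1.11e-05) at the smallest p. Stimulation called 0 of the 74 genes by edgeR, with 5 at an unadjusted p under 0.05 on P(rGO), 0 with PEDOT:PSS and 0 on ITO. The medians for stimulation on P(rGO) were -0.06 on the ER side and 0.07 on the other side, beside -0.45 for the 13 chaperones and 0.42 for the 9 ATF4-type targets.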

How the data were processed

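RNA was sequenced from 16 SH-SY5Y libraries in 8 groups of 2. The values are the read counts per gene that the authors deposited in 1 table of 69222 genes; reads were aligned with STAR to GRCh38.p13 (hg38) and counted with HTSeq, per the submitters' processing notes. Versions and the strand setting are not given in the sources used here. Rows of HTSeq's own categories were left out of library sizes. Columns were matched to samples by the labels. Genes kept by edgeR's filterByExpr (18081) were scaled by TMM and fitted by edgeR 4.0.16 (R 4.3.3, limma 3.58.1) with a robust quasi-likelihood model, 1 mean for each of 8 groups and 8 residual degrees of freedom, and p-values were adjusted by Benjamini-Hochberg over all genes tested at a threshold of 0.05. The standard error was taken as the absolute log2 fold change over the square root of F. The model was tested on simulated data. Library values are given in part as ranges and not for every group. They cover called members, up to 4 per role and comparison by smallest p, and HSPA5, XBP1, ATF6, ERN1, EIF2AK3, ATF4, DDIT3 and ATF3. Others are examples chosen after their values were seen. The members and lists were chosen with earlier results of these data known. Alternatives were other scaling, no filter on low counts, a replicate block, DESeq2 1.42.0, only the groups compared, leaving out each library and, chosen after seeing the data, leaving out the untreated libraries, or the first stimulated P(rGO) and ITO libraries together, or CANX.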

Additional observations from a re-analysis of the deposited data

How the results depend on the processing

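The median of the ATF4-type targets for stimulation on P(rGO) was -0.12 without the first stimulated libraries of P(rGO) and ITO together, and -0.12 to 0.78 when single libraries were left out. Leaving out single libraries gave chaperone medians of -0.64 to 0.069 for unstimulated films against untreated plates and -1.09 to -0.36 for differentiated against untreated plates. Calls over all genes also moved between fits. Without the untreated libraries 7.28% of all genes were higher on P(rGO) than on differentiated plates, against 2.99% in the main fit. The counts of members below are therefore not read as particular to them. The number of members called moved as follows. With no filter on low counts it was 12 for the 6 film groups, 9 for ITO, 8 for P(rGO) and 4 with PEDOT:PSS, all against differentiated plates, 24 for the 8 groups, 4 for mean stimulation, 5 for stimulation on P(rGO) and 1 on ITO. With only the groups compared it was 13 for the 6 film groups, 5 for P(rGO), 2 with PEDOT:PSS and 1 for differentiated against untreated plates. Without the untreated libraries it was 13 for the 6 film groups, 12 for ITO, 13 for P(rGO) and 7 with PEDOT:PSS, and DESeq2 gave 6, 4 and 2 for ITO, P(rGO) and PEDOT:PSS. Leaving out single libraries gave 0 to 12 for the 6 film groups, 0 to 11 for ITO, 0 to 12 with P(rGO), 0 to 7 with PEDOT:PSS and 8 to 20 for differentiated against untreated plates. The cause was not tested. With the replicate number as a block, 1 member was called on PEDOT:PSS and no other count moved by over 1.5 times. The log2 CPM difference between the first and second library of a group was correlated over genes between groups. Over 28 group pairs the correlations were -0.19 to 0.29 (median 0.11), above 0.1 in 16. The numbers were not taken to pair the libraries, although the labels give each number its own prefix. Of 39 single-gene calls none changed direction under any alternative, 1 was lost with RLE scaling, 2 with no filter, 0 with DESeq2 or the block, 15 with only the groups compared, and 96 of 624 when single libraries were left out.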
